A study of Drosophila melanogaster with 25 samples.

Results

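The cytosolic ribosomal protein genes of Drosophila melanogaster were taken as all genes whose FlyBase symbol is RpL or RpS with a number and an optional letter, together with RpLP0, RpLP1, RpLP2 and sta, and without RpL22-like, RpS6KII and RpS6KL. This gave 88 of the 16060 genes in the table, 6 of them with a symbol of 2 letters after the number or with a dash (RpL10Aa, RpL10Ab, RpS15Aa, RpS15Ab, RpL37-1 and RpL37-2). Of the 88 genes, 86 were above 0 in at least 1 library and 81 reached 1 RPKM in at least 5 libraries, which was the requirement for testing that 7985 genes met. RPKM is the number of reads per kilobase of gene length per 1e6 reads of the library. RNA of fly brains was sequenced in 25 libraries. They comprised 5 libraries of control females, 7 of females after long-term photodynamic exposure (PDE), 7 of control males and 6 of males after PDE. The sources used here do not give the strain, the age of the flies, the photosensitising compound, the light or the duration of the exposure, and they name no batch. They also do not tie each library to its own flies, so a p-value measures the spread between these libraries, which may be technical.

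Ribosomal proteins bind ribosomal RNA to build the small and the large subunit of the ribosome, which together translate every cytosolic mRNA. Because each ribosome carries nearly all of these proteins in equal number, their mRNAs are among the most abundant of most cells and are usually made in step. In flies, losing a copy of many of these genes gives the Minute phenotype of slow growth and short bristles, and cells with a reduced dose turn on the transcription factor Xrp1.

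The libraries held 8.88 to 58.7 M reads. The male-specific RNAs roX1 and roX2 summed to 10.3 to 39.7 RPKM in every female library and to 1993 to 2322 RPKM in every male library. The brain label was checked on 5 neuronal markers, which summed to 405 to 481 RPKM, with the synaptic vesicle gene nSyb alone at 271 to 317 RPKM. The neuronal RNA-binding gene elav was listed at no more than 0.0466 RPKM in any library, and 98.6% of its span lies in genes of the opposite strand. In the 3 glial markers of the table the sum was 250 to 412 RPKM, with moody listed at 0 and wholly inside an opposite-strand gene. The sum of 15 retina markers ran from 81.7 to 9622 RPKM, with Arr2 and ninaA listed at 0 and also wholly inside opposite-strand genes. In brain tissue sequenced in bulk, fewer cells of a type and less RNA per cell cannot be told apart.

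The way the deposited values were made affects how these genes can be compared. The RPKM steps gave back whole reads for all 86 genes above 0. For 82 of them the length behind the RPKM equalled the genomic span, introns included, minus the bases shared with genes of the same strand, and this rule also held for 93.9% of 10742 intron-containing genes of the table. Ribosomal protein genes often carry small nucleolar RNA genes in their introns. In the annotation 29 of the 88 genes (33.0%) host at least 1, with 76 nested genes in all, against 0.418% of 12906 other protein-coding genes. An RPKM value of a gene with introns thus understates its level per exon. Unless RPKM or reads are named, levels between genes below are reads per kilobase of exonic bases in no other gene, per 1e6 reads. All recovered reads of a gene enter that level, with any in introns, and the exons of all its annotated transcripts count. The level therefore depends in part on the annotation. That level could be computed for 77 of the genes tested, and not for RpL22, RpL23A or RpS6, among others, whose length in use did not match the annotation. RpS6, the subunit protein phosphorylated by S6 kinase, rested on a length of only 89 bases and on 57 to 456 reads per library.

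The ribosomal protein genes stood at high RPKM and at unequal levels per exon length in these brains. All 81 genes tested had a mean RPKM above the median of 11.7 RPKM for all genes tested, and 49 of them were in the top 10%. This rank uses RPKM, whose length includes introns, and not the level per exon length. The median genomic span was 1344.5 bases for the 88 genes and 2207.5 for other protein-coding genes. The part of span in the rank was not tested. Per exon length, the median of the 77 genes was 97.7 reads per kilobase per 1e6 reads, and the highest was 16.2 times the lowest. The 5 highest were RpS25 at 308 ± 46.3 (SD, n = 25), RpL40 at 307 ± 44.4, RpL39 at 299 ± 56.2, RpS3A at 269 ± 27.4 and RpS2 at 238 ± 25.9. RpL40 and RpS27A, which stood at 189 per exon length, encode ubiquitin fused to a ribosomal protein. The 5 lowest were RpS15Ab at 19.1 ± 2.77 (SD, n = 25), RpS21 at 21.5 ± 3.49, RpS19a at 25.3 ± 3.52, RpS26 at 32.4 ± 4.84 and RpL11 at 33.5 ± 4.45. Neighbours in the order of levels, such as RpS25 and RpL40 or RpS15Ab and RpS21, differed by less than their spread over libraries. The genes move together between libraries, so that spread does not measure how firm the order is, which was not tested.

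**Figure D1:**
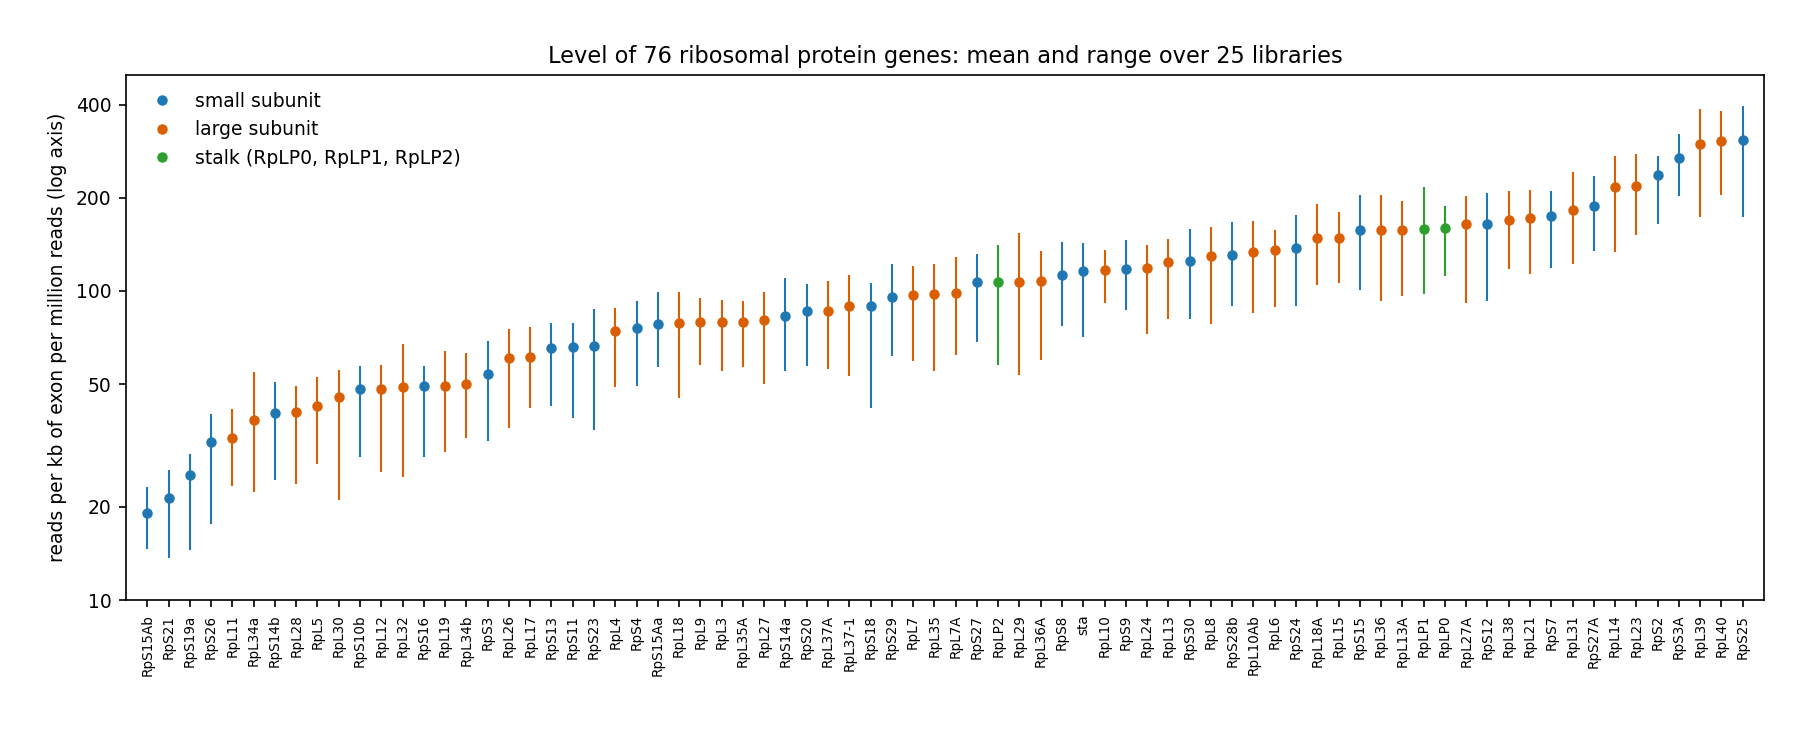
Level per exon length of 76 ribosomal protein genes, in reads per kilobase of exon per 1e6 reads on a log axis, ordered from lowest to highest. Points are means over 25 libraries, vertical lines run from the lowest to the highest library and colours mark the subunit, with levels from 19.1 for RpS15Ab to 308 for RpS25.

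By role, the small subunit genes had a median level per exon length of 87.8 (32 genes) and the large subunit genes other than the stalk a median of 98.0 (42 genes). The 3 stalk genes, whose proteins form the flexible arm that recruits elongation factors, had a median of 159. The 13 X-linked genes with such a level had a median of 83.2 and the 64 autosomal genes a median of 107. Genes with and without a nested small nucleolar RNA gene had medians of 96.9 (26 genes) and 97.7 (51 genes). These medians are descriptions without a test.

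Several fly ribosomal proteins are encoded by 2 genes, and in 8 such pairs the reads were divided in different ways. In RpL10A, RpL37, RpS19 and RpS28 nearly all reads belonged to 1 gene of the pair. RpL10Aa had 5 reads in 25 libraries beside 90738 for RpL10Ab. RpL37-2 had 29 reads beside 81169 for RpL37-1. RpS19b, known in flies from the germ line, had 15 reads beside 22624 for RpS19a. RpS28a had 25 reads beside 83652 for RpS28b. Markers of germ cells were also low in these libraries, with 5 germline genes summing to 0.358 to 1.43 RPKM. The other pairs shared their reads more evenly. RpS14a and RpS14b, neighbours on the X chromosome, took 51034 and 16793 reads. RpS15Aa and RpS15Ab took 51345 and 9597 reads, and RpL34a and RpL34b took 16884 and 32433. Per exon length RpS14a and RpS14b stood at 83.2 and 40.1, and RpS15Aa and RpS15Ab at 78.3 and 19.1. RpL34a and RpL34b stood at 38.4 and 49.9 by that measure. Reads of near-identical copies can be assigned to the wrong gene, and no source used here says how the authors' counting treated them, so the split within a pair is uncertain.

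RpS10a and RpL41, which encodes the smallest ribosomal protein, were listed at 0 in all 25 libraries. Each lies wholly inside a gene of the opposite strand. Of 1786 genes in that position, 1632 (91.4%) were listed at 0 in every library, against 5.95% of the other genes. The zeros of RpS10a and RpL41 were therefore not read as levels.

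**Figure D2:**
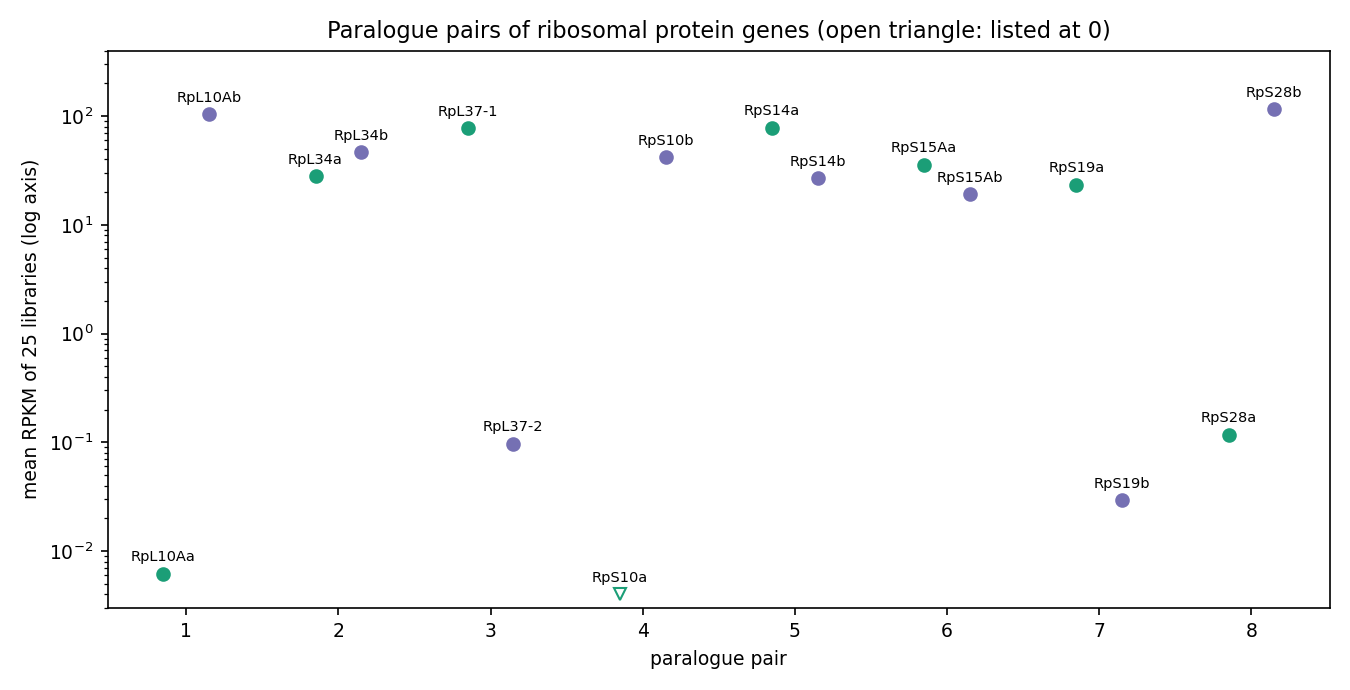
Mean RPKM over 25 libraries, on a log axis, of the 2 genes in each of 8 paralogue pairs. Green marks the gene named first and purple the gene named second. The length behind the RPKM includes introns, so the points are not levels per exon length. In 4 pairs 1 gene lies above 0 and below 1 RPKM, and the open triangle marks RpS10a, listed at 0.

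Between libraries, the ribosomal protein genes moved together. After subtracting each group's mean from log2(RPKM + 1), the median correlation between pairs of the 81 genes over 25 libraries was 0.905, against 0.104 between pairs of all genes tested. Without the female control library 3 the 2 medians were 0.867 and 0.0822. These correlations are descriptions, and the genes share library depth and scaling in every point. The gene that followed the others least was RpS6, with a correlation of 0.70 to the mean of the other genes, followed by RpS15Ab at 0.76. RpS6 rested on few reads, and the split of reads between RpS15Ab and RpS15Aa is uncertain. The part of read noise in these values was not tested. RpL14 followed them most, at 0.98. The single gene with the widest range was RpL29, a large subunit gene, whose highest library had 2.88 times the RPKM of its lowest. RpL10, a protein that joins the large subunit late in its assembly, had the narrowest range at 1.49 times.

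The summed RPKM of the 88 genes showed which libraries set this pattern. Among female controls it was 7399, 6848, 4163, 6936 and 6394 RPKM in libraries 1 to 5. After female PDE it ran from 5000 to 7728 RPKM with a median of 6675. In control males it ran from 5405 to 7552 RPKM with a median of 6519. After male PDE it ran from 5641 to 7289 RPKM with a median of 6399. The groups overlapped throughout, and the library that stood apart was female control 3. All 81 genes were below their group mean in that library, and 78 of them had their lowest value of all 25 libraries there. It was also the shallowest, at 8.88 M reads, and had the lowest sum of 37 translation factor genes, 2034 RPKM in a range of 2034 to 2763. All 81 genes were again below their group mean in female PDE 3, male control 7 and male PDE 5. These libraries held 48.3, 58.7 and 27.9 M reads, and male control 7 was the deepest of all. All 81 genes were above their group mean in male control 1, female PDE 4, male PDE 3 and male PDE 4. Male PDE 1, with 11.2 M reads, had a sum of 6398 RPKM. The 5 libraries richest in retina markers had sums of 5405 to 7289 RPKM, within the range of the other 20. The part of depth or of tissue in these shifts was not tested.

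**Figure D3:**
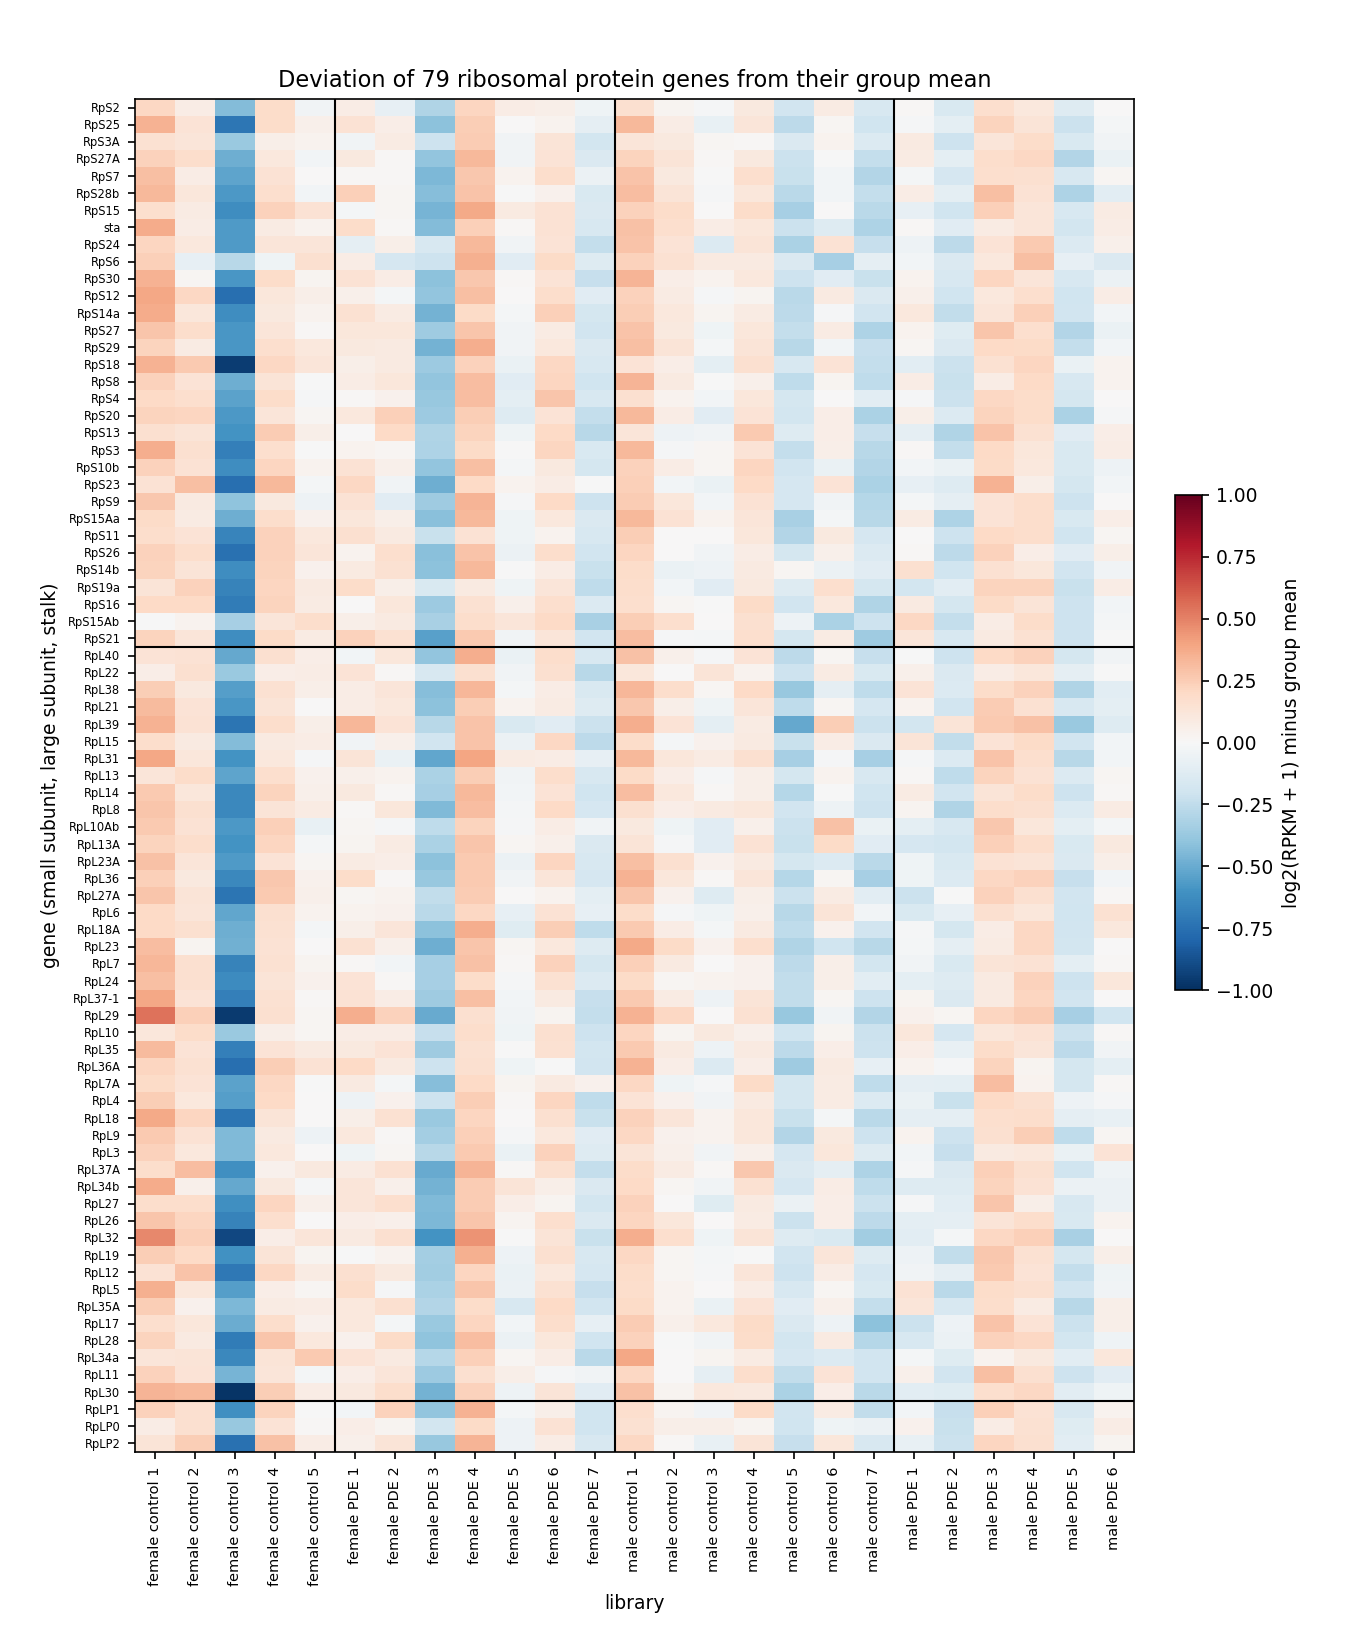
Deviation of 79 ribosomal protein genes (rows) from their group mean in log2(RPKM + 1) in each of 25 libraries (columns), with blue below and red above. Columns rather than rows carry the colour, and female control 3, female PDE 3, male control 7 and male PDE 5 are blue in all 79 genes shown.

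Female brains after PDE were compared with control female brains to ask whether the exposure changed expression of the ribosomal protein genes. None of the 81 genes passed limma with Benjamini-Hochberg adjustment over all 7985 genes at 0.05, where 0.0751% of all genes tested were called. At an unadjusted limma p under 0.05 the count was 0 of 81, against 4.8% of all genes. By limma voom on the recovered reads it was also 0 at either threshold. The median SE was 0.13 for the 81 genes and 0.079 for all genes tested. The 81 genes also move together between libraries, so their results are not independent. A count of 0 is therefore no sign of unusual stability, here or in the comparisons below. No ribosomal protein gene had groups that did not overlap, against 0.313% of all genes. The median log2 difference of RPKM + 1 was 0.03, against 0.01 for all genes, and 60 of 81 differences were above 0, against 56.5% of all genes. The count above 0 was 51 with quantile normalization, 50 with median ratio scaling and 30 with limma voom. Without female control 3 that median was -0.12, and with limma voom it was -0.02.

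In males, PDE against control again gave 0 genes of 81 by limma, against 0.175% of all genes, and 0 at an unadjusted p under 0.05, against 3.99%. By limma voom both counts were 0. The median SE in males was 0.12 for the 81 genes and 0.075 for all genes. The groups of every gene overlapped, against 0.363% of all genes that did not. The median log2 difference was 0.01, equal to that of all genes at 2 decimals, and 45 of 81 differences were above 0, against 58.7% of all genes. With quantile normalization or median ratio scaling the male median was -0.01, with 38 and 32 differences above 0.

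**Figure D4:**
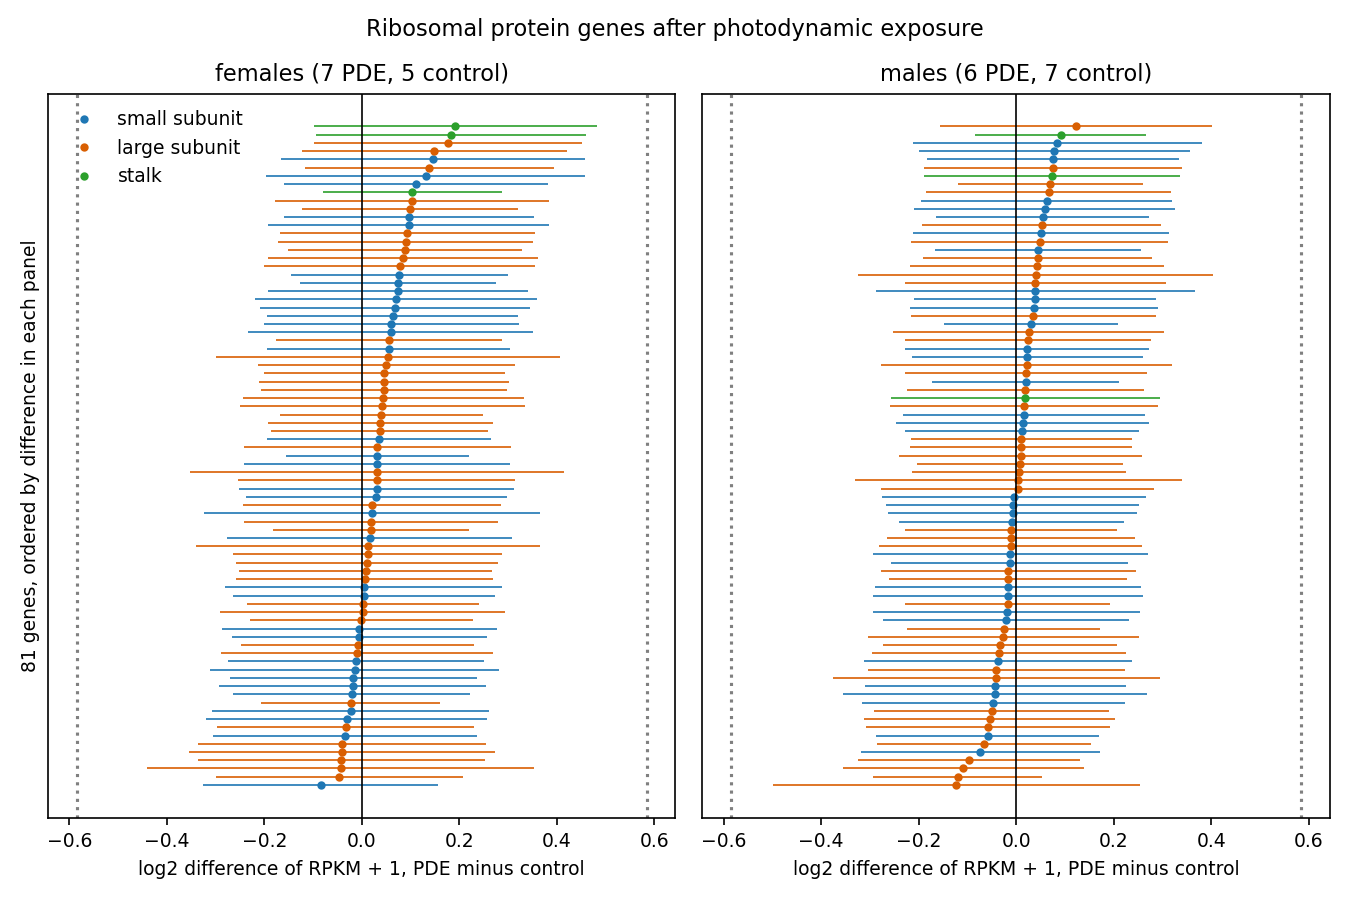
Log2 difference of RPKM + 1 between PDE and control for 81 ribosomal protein genes in females (left) and males (right), each panel ordered by its own values. Points are limma estimates, bars are 95% confidence intervals and dotted lines mark 1.5-fold in either direction, within which all 81 intervals lie in both panels.

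With the changes of the sexes averaged, 0 of 81 genes passed limma, against 0.413% of all genes. None had an unadjusted p under 0.05, against 6.41%, and limma voom gave 0 at both thresholds. The median SE of the averaged change was 0.090 for the 81 genes and 0.054 for all genes. The difference between the male and the female change gave 0 calls among the ribosomal protein genes and 0.0% among all genes. None of the 81 had an unadjusted p under 0.05 in that limma comparison, against 2.22%, and voom again gave 0. The limma 95% confidence intervals of all 81 genes lay within 1.5-fold in either direction in each sex and on average, and those of 78 of 81 did so for the difference between the sexes. Over the 81 genes the averaged intervals reached no lower than -0.36 and no higher than 0.33 on the log2 scale. A p that misses the threshold does not show that a gene was unchanged, and these intervals give the size that the libraries allow.

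Of the averaged change, RpLP0 and RpLP1 had the smallest p-values of the 81 genes and RpLP2, the other stalk gene, the fifth smallest, with none called. RpLP0, the base of the stalk, stood at 126, 134, 91.6, 132 and 120 RPKM in female controls 1 to 5. After female PDE it ran from 112 to 147 RPKM with a median of 131, in control males from 114 to 145 with a median of 134, and after male PDE from 119 to 155 with a median of 145. The groups overlapped in each sex. The averaged log2 difference of RpLP0 was 0.10 (SE 0.061), a 1.07-fold level with a 95% interval of 0.980 to 1.17 (limma adjusted p = 0.95). RpLP1, which binds RpLP0 with its partner RpLP2, ran from 82.1 to 148 RPKM in female controls and from 108 to 182 after female PDE. In males RpLP1 ran from 106 to 145 RPKM in controls and from 113 to 157 after PDE. Its averaged log2 difference was 0.13 (SE 0.092, limma adjusted p = 0.987). For RpLP2 the averaged log2 difference was 0.11 (SE 0.097, limma adjusted p = 0.999). All 3 stalk differences were above 0 in females, in males and on average, where 4791 of all 7985 genes were also above 0 on average. Without female control 3 the averaged differences of RpLP0, RpLP1 and RpLP2 were 0.05, 0.05 and 0.01, and the female ones, at 0.10, 0.18 and 0.19 with that library, were 0.01, 0.03 and 0.01. In males the RpLP2 difference was below 0 under 7 alternatives, among them -0.02 without the 5 retina-rich libraries.

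The other genes with the smallest p-values did not pass the test either. In females these were RpL12, a protein near the base of the stalk, with a log2 difference of 0.18 (SE 0.13), and on the negative side RpS15Ab at -0.08 (SE 0.12), RpL5 at -0.05 (SE 0.12) and RpL38 at -0.04 (SE 0.14). In males RpL38 stood at 0.12 (SE 0.14) and RpL10 at 0.07 (SE 0.092), while RpL22 stood at -0.12 (SE 0.084), RpL34a at -0.11 (SE 0.12) and RpL10Ab at -0.10 (SE 0.11). On average RpS23, a protein of the decoding centre, had a log2 difference of 0.12 (SE 0.10) and RpL29 one of -0.08 (SE 0.13). RpL5 binds 5S ribosomal RNA together with RpL11.

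A further set of genes was chosen for roles beyond the structure of the ribosome or for use as reference genes, and none of them was called. RpS12, which in flies is needed for the response of cells to a reduced ribosomal protein dose, stood at 100, 88.6, 45.1, 82.9 and 79.9 RPKM in female controls 1 to 5 and between 60.7 and 98.8 RPKM after female PDE, with a median of 80.0. In males RpS12 ran from 66.2 to 93.6 RPKM in controls and from 68.5 to 88.5 after PDE, and its averaged log2 difference was 0.02 (SE 0.097). RpS3, a protein at the mRNA entry site that also acts in DNA repair, had an averaged log2 difference of -0.02 (SE 0.094). For RpS6 the value was 0.05 (SE 0.077), for RpL40 it was 0.04 (SE 0.088) and for RpS27A it was 0.00 (SE 0.085). RpL19, a classical Minute gene, had 0.05 (SE 0.088), and sta, the small subunit protein also known as the laminin receptor homologue, had 0.09 (SE 0.091). In each case the 95% interval included 0.

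Genes that serve ribosomes were looked at in lists. Of 37 translation factor genes, 18 ribosome biogenesis genes, 10 RNA polymerase I genes and 4 ribosome quality control genes tested, 0 passed limma for PDE in females, in males or on average, where 0.0751%, 0.175% and 0.413% of all genes did. On average 0 translation factors, 0 biogenesis genes, 1 polymerase gene and 1 quality control gene had an unadjusted p under 0.05, against 6.41% of all genes. The polymerase gene was udd, a factor of ribosomal RNA gene transcription, at a log2 difference of -0.15 (SE 0.058, limma adjusted p = 0.561). The quality control gene was HBS1, which rescues stalled ribosomes, at 0.10 (SE 0.047, limma adjusted p = 0.737). Translation factors with the smallest p-values were eEF2 at 0.11 (SE 0.056), pAbp at 0.05 (SE 0.028) and eIF4G1 at 0.07 (SE 0.038). Biogenesis genes with the smallest were Mat89Ba at 0.09 (SE 0.048), Tsr1 at 0.08 (SE 0.047) and Nop56 at 0.08 (SE 0.048).

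Among 16 regulators tested, Xrp1 was the 1 gene called after PDE, against 0.413% of all genes on average, and it rose. Its mean went from 18.7 ± 2.22 RPKM (SD, n = 5) to 31.1 ± 1.61 (n = 7) in females and from 18.0 ± 1.68 (n = 7) to 28.1 ± 3.31 (n = 6) in males. The averaged log2 difference of Xrp1 was 0.66 (SE 0.053, limma adjusted p = 5.02e-08), in the same libraries in which no ribosomal protein gene was called. Irbp18, the binding partner of Xrp1, was listed at 0 in all libraries and lies wholly inside an opposite-strand gene. Myc, a driver of ribosomal protein and ribosomal RNA genes, had an averaged log2 difference of 0.17 (SE 0.063, limma adjusted p = 0.472). Tsc1, a brake on the TOR pathway, had 0.04 (SE 0.033).

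Control male and control female brains were compared, and so were both sexes after PDE, to ask whether the ribosomal protein genes differ by sex. A single gene, RpL22, was called, and it was lower in males. RpL22 is a large subunit protein whose fly form carries a histone H1-like extension, and its gene lies on the X chromosome at X:762560-765130, minus strand, in the dm6 assembly. It stood at 241, 258, 178, 241 and 243 RPKM in female controls 1 to 5. In control males it ran from 160 to 202 RPKM with a median of 188. After PDE it ran from 186 to 253 RPKM in females with a median of 228, and from 153 to 183 RPKM in males with a median of 172. Female control 3 was the only female control below the highest control male, and after PDE the sexes did not overlap.

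In controls the log2 difference of RpL22, male minus female, was -0.32 (SE 0.089), a level 0.80 times that of females with a 95% interval of 0.705 to 0.908 (limma adjusted p = 0.0351). That call was 1 of 81 genes, against 3.17% of all genes called lower in males. After PDE the difference was -0.42 (SE 0.084), 0.748 times with an interval of 0.663 to 0.844 (limma adjusted p = 0.00268), and the call was again 1 of 81, against 3.27%. RpL22 was also the 1 gene of 81 whose sexes did not overlap after PDE, against 2.09% of all genes lower in males without overlap. In controls 0 of 81 had no overlap, against 2.97% in either direction. Limma voom called 1 gene in each comparison. The male minus female difference in the PDE change of RpL22 was -0.10 (SE 0.12, 95% interval -0.35 to 0.16) and did not pass the test (limma adjusted p = 0.999). The control call was lost without any 1 of 8 libraries (limma adjusted p up to 0.107). These were female controls 1, 2, 4 and 5 and control males 2, 4, 5 and 7. The call was also lost without the 5 retina-rich libraries (-0.28, limma adjusted p = 0.268). Those 5 are female control 4, control males 4, 5 and 6 and male PDE 3. Leaving them out removes more male than female libraries, and retina content and lost replicates cannot be told apart here. Without female control 3 the control difference was -0.41 (SE 0.079, limma adjusted p = 0.00228). The call after PDE held in all 25 fits that left out 1 library.

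RpL22 lies on a chromosome where many genes differed between the sexes. Of 1315 X-linked genes tested, 165 (12.5%) were called lower in control males and 187 (14.2%) lower in males after PDE, and RpL22 ranked 88th and 52nd from the lowest difference. Within 50 kb, 9 other genes were tested and 0 were called in either sex comparison. Their log2 differences, male minus female, ran from -0.44 to 0.06 in controls, with 7 below 0, and from -0.79 to 0.07 after PDE, with 8 below 0. The nearest, the low noncoding gene lncRNA:CR44965 with 0.687 RPKM on average, had -0.44 (SE 0.16) in controls and -0.46 (SE 0.16) after PDE. The next, CG5273, had 0.06 (SE 0.091) in controls and -0.06 (SE 0.087) after PDE. RpL22 hosts 2 small nucleolar RNA genes, 1977 bases were in use as its length and 723 of its 1100 exonic bases lie in no other gene. Markers of the fat body, a tissue around the brain, also moved with sex. The 7 listed summed to 77.4 to 5528 RPKM in control females and 15.5 to 76.4 in control males, and to 143 to 2211 and 7.80 to 38.0 after PDE. The list includes the yolk protein genes Yp1, Yp2 and Yp3. Its sum therefore does not tell the amount of tissue from gene expression that differs by sex. The part of these markers in the RpL22 difference was not tested. RpL22-like, the germline paralogue of RpL22, did not exceed 0.0837 RPKM in any library.

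The other 14 X-linked ribosomal protein genes were not called in either sex comparison. They include RpL7A, RpL17, RpL35, RpL36, RpL37-1, RpS6, RpS10b, RpS14a, RpS14b, RpS15Aa, RpS19a, RpS28b and sta. The median log2 difference of the 14 genes, male minus female, was 0.08 in controls and 0.05 after PDE, where all X-linked genes tested had medians of -0.05 and -0.06. The 66 autosomal ribosomal protein genes had medians of 0.05 and 0.00. Without female control 3 the control medians were -0.05 for the 14 X-linked genes and -0.10 for the autosomal ones, and after PDE the autosomal median was -0.03 when scaled to the sum of the other genes. By smallest p-value the named genes on the higher side in control males were RpL34a at 0.21 (SE 0.13), RpL35 at 0.19 (SE 0.13) and RpLP0 at 0.13 (SE 0.089), and on the lower side RpS15Ab at -0.14 (SE 0.12) and RpL10 at -0.10 (SE 0.097), with none of these 5 called.

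Because the genes move together from library to library, a further fit took the median log2 value of the 81 genes in each library as a covariate, a choice made after the data had been seen. It compares a gene with the median of the ribosomal protein genes of the same library, itself included, with a slope fitted for each gene. The covariate comes from the genes under test. Their p-values and the shares of all genes in that fit are thus not like for like. The median SE of the averaged PDE change went from 0.090 to 0.035. For PDE it called 0 of the 81 genes in females, in males, on average and for the difference between the sexes, against 0.113%, 0.25%, 0.626% and 0.0% of all genes in the same fit. On average 7 genes had an unadjusted p under 0.05, namely RpLP0, RpLP1 and RpLP2 with differences above 0 and RpL5, RpL21, RpL22 and RpL29 with differences below 0, against 8.29% of all genes. Without female control 3 the same fit gave 5 such genes, with RpLP2, RpL5 and RpL21 no longer among them and sta added, against 7.24% of all genes.

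Between the sexes this fit called RpL22 again, at -0.36 (SE 0.043, limma adjusted p = 3.89e-06) in controls and at -0.43 (SE 0.040, limma adjusted p = 1.1e-07) after PDE. It also called RpL35, a protein beside the exit tunnel, as higher in males, at 0.11 (SE 0.028, limma adjusted p = 0.0121) in controls and 0.17 (SE 0.026, limma adjusted p = 8.78e-05) after PDE. RpL35 stood at 70.8, 62.6, 35.0, 62.5 and 60.6 RPKM in female controls 1 to 5 and from 53.8 to 77.9 RPKM in control males with a median of 67.8. After PDE it ran from 45.2 to 64.8 RPKM in females with a median of 62.3 and from 55.4 to 76.0 in males with a median of 67.5, so that the sexes overlapped in RPKM. In controls RpL10 at -0.15 (SE 0.039) and RpL38 at -0.18 (SE 0.055) were also called lower in males, with limma adjusted p of 0.0198 and 0.0427. Without female control 3 neither was called (limma adjusted p = 0.111 and 0.205), while RpL22 and RpL35 were. The calls numbered 4 of 81 in controls, against 7.33% of all genes in that fit, and 2 of 81 after PDE, against 7.16%.

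**Figure D5:**
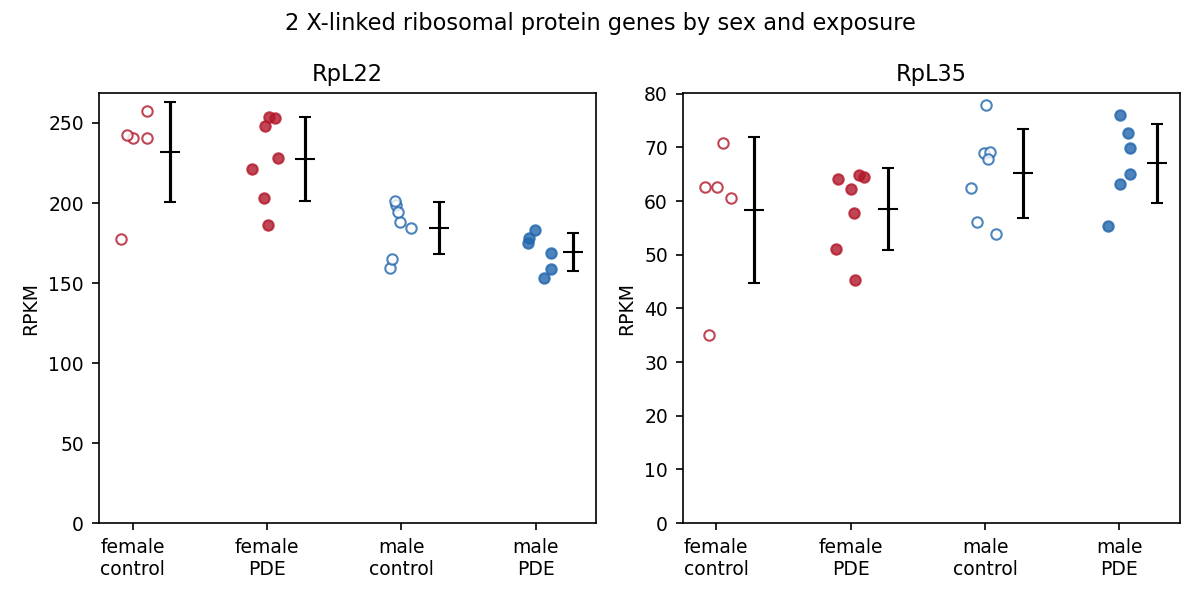
RPKM of RpL22 (left) and RpL35 (right) in every library by sex and exposure, with open points for controls, filled points for PDE and bars for the mean and SD. RpL22 reaches 183 RPKM at most in males after PDE and 186 at least in females after PDE, while the groups of RpL35 overlap.

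Regulators differed by sex as well. Myc, which is X-linked, was lower in males by a log2 difference of -0.62 (SE 0.091, limma adjusted p = 8.43e-05) in controls and -0.66 (SE 0.087, limma adjusted p = 1.58e-05) after PDE. Trf2, a factor that transcribes ribosomal protein genes in flies and is also X-linked, had -0.26 (SE 0.060, limma adjusted p = 0.0102) in controls and -0.23 (SE 0.057, limma adjusted p = 0.0186) after PDE. These 2 were the regulators called of 16, against 3.17% of all genes called lower in control males and 3.27% after PDE, and 12.5% and 14.2% of X-linked genes. The X-linked biogenesis gene bys was higher in males at 0.35 (SE 0.085, limma adjusted p = 0.0175) in controls and 0.30 (SE 0.081, limma adjusted p = 0.0327) after PDE, as the only one of 18 called, against 1.58% and 1.65% of all genes called higher in males and 7.15% and 7.45% of X-linked genes. Of the genes named like ribosomal proteins but outside the rule, RpL24-like ran from 58.8 to 140.0 RPKM over the libraries and RpLP0-like from 6.14 to 8.84 RPKM, and neither was called in any comparison.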

How the data were processed

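The authors deposited 1 table of RPKM values with 16060 genes, read here as given. Per the submitters' processing notes the reads were aligned with STAR to dm6. For the read counter and its settings, not given in the sources used here, nothing was assumed. The labels matched every column, leaving 0 unassigned. Whole reads were recovered from the RPKM steps for 13575 of 13581 genes above 0 (tolerance 0.001 reads). Symbols and positions came from the tables supplied and from the Ensembl BDGP6.54 annotation (release 115) of the same assembly.

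limma 3.58.1 in R 4.3.3 was fitted with an intensity trend to log2(RPKM + 1), so a fold change understates the change of low genes. All 4 groups entered 1 fit of the 7985 genes with at least 1 RPKM in 5 libraries. P-values were adjusted over all genes of a comparison and called under 0.05. Named genes were those called, the 3 with the smallest p in each direction, the 5 highest and lowest per exon length (at least 100 exonic bases), the X-linked genes, the paralogues and a few fixed by role. A few of these genes are counted in the totals but not reported here by name. The genes and lists were chosen with earlier results of these data known. Alternatives were other pseudocounts, filters, scalings, weights, covariates and sample sets. Library totals ran from 8.88 to 58.7 M reads, and a tested ribosomal protein gene had at least 57 reads in each library.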

Additional observations from a re-analysis of the deposited data

Results flagged for a closer look

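Each of 17 named genes and the summed level were checked in 4 groups for a library far from the rest of its group, 72 checks of which chance would flag about 1 in 20. In female control 3 a low value was found for 6 genes. RpL22 was at 177.7 RPKM beside 240.7 to 257.5 in the other female controls, RpLP2 at 57.4 beside 102 to 119, RpL40 at 156.1 beside 233.9 to 250.4 and RpS14b at 16.4 beside 26.6 to 30.3. RpL35 was at 35.0 RPKM beside 60.6 to 70.8 and RpL34a at 16.3 beside 28.4 to 31.5. These 6 values belong to 1 library and are not independent. In male control 1 RpL34a was high, at 39.9 RPKM beside 26.5 to 32.1 in the other control males.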

How the results depend on the processing

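The comparisons were recomputed under 15 other settings, 25 fits without 1 library and 2 with the median of the ribosomal protein genes as a covariate, which were chosen after seeing the data. No ribosomal protein gene was called for PDE in any of them, and the sign of the averaged change flipped at least once for 68 of 81 genes. For control males against control females the count of 1 became 0 with no filter on low values, with only the groups compared, with the retina covariate and without the 5 retina-rich libraries. It was 4 with the median covariate, 2 with that covariate and without female control 3, and 0 to 1 without single libraries. After PDE the count of 1 became 2 with the median covariate, with or without female control 3. The cause of these moves was not tested. The RpL22 adjusted p by limma ran from 3.89e-06 to 0.268 in controls and from 1.1e-07 to 0.00998 after PDE over all of these. The labels do not say whether replicate numbers pair the libraries. The median correlation of deviations was 0.0807 over 34 same-numbered pairs (-0.688 to 0.75) and -0.0261 over 199 others (-0.696 to 0.757). With ranges this wide, these medians do not settle whether the numbers mark a pairing. With the number as a replicate block 0 genes were called for PDE and 1 in each sex comparison. Depth limits RpS6 most, and without female control 3 the medians for PDE in females, PDE on average and control males against females were -0.12, -0.05 and -0.10.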
